A study of Mus musculus with 4 samples.

Results

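The Ifit genes of the mouse were Ifit1, Ifit2, Ifit3 and Ifit3b, 4 of the 48897 genes for which reads were counted. They were picked by name after their counts in these same libraries were known, so their difference between the groups is described here and no p-value is given for it. The counts come from whole-retina RNA of wild type C57BL/6 mice (C57BL/6J in the methods of the study) on postnatal day 9. The age is that of the sample labels and the methods, while the design text of the series speaks of mice 6 days old. On postnatal day 3 each left eye had received 0.6 nmol of an antagomir of miR-124-3p in 1 μl by intravitreal injection (anti-miR-124 group, whose libraries are called antagomir libraries), and each right eye an equal amount of a scrambled sequence (negative control, NC group). An antagomir is a modified antisense oligonucleotide that binds a mature microRNA. There were 2 libraries per group, each from mixed retinas, and the mice of a group came from at least 2 litters. The methods state how many retinas were mixed for a group, but not how many went into each library. In the table a left-eye and a right-eye library carry the same number, which gives pair A and pair B. Whether that number truly pairs the libraries was not established, so each value within a pair depends on this matching. All antagomir eyes were left eyes and all NC eyes were right eyes, so the side and the oligonucleotide cannot be told apart. The mature microRNA was not measured by these libraries.

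IFIT proteins (interferon-induced proteins with tetratricopeptide repeats) are built from repeated pairs of helices and sit in the cytoplasm. They are made after a cell senses viral RNA or receives type I interferon, and several of them bind RNA. Ifit1 holds on to mRNA whose cap lacks ribose methylation and keeps it from being translated, Ifit2 binds RNA and is linked to restriction of viruses in neurons and to cell death, and Ifit3 is known as a partner of other IFIT proteins. Ifit3b is a near copy of Ifit3. Their transcription is driven by the transcription factor complex ISGF3, which binds the interferon-stimulated response element (ISRE).

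All 4 genes lie on the plus strand of chromosome 19, within 99.46 kb. The positions in the table are those of GRCm38. Ifit2 is listed from 34550549 to 34576534, Ifit3 from 34583142 to 34588982, Ifit3b from 34607540 to 34613409 and Ifit1 from 34640889 to 34650009. In the GENCODE M21 annotation of this build, the coding transcripts of Ifit1, Ifit3 and Ifit3b have 2 exons each, with longest introns of 6483, 3456 and 3432 bases. The longest transcript of Ifit2 has 3 exons and an intron of 19196 bases. The proteins have 463 residues for Ifit1, 470 for Ifit2 and 403 for both Ifit3 and Ifit3b. Ifit3 and Ifit3b differed at 11 of 1209 coding bases and at 5 of 403 residues, which is an identity of 98.8% in the protein. Ifit1 shared 36.5% of aligned residues with Ifit2 and 38.0% with Ifit3, and Ifit2 shared 46.5% with Ifit3.

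The promoter windows show how alike the upstream sequences of these genes are, and where Ifit2 stands apart. RefSeq windows on GRCm38.p6, each from 250 bases before to 50 bases after a listed start site, were available for all 4 genes. They were searched on both strands for the core of the ISRE, written as GAAA, any 2 bases and GAAA. The windows of Ifit1, Ifit3 and Ifit3b held 2 matches each, while both windows of Ifit2 held 0. Of 32851 windows of all genes, 3.44% held a match and 0.225% held 2 or more. The stretches with the matches are given on the plus strand, with the ISRE cores in capitals and 15 flanking bases on each side.
Ifit1, chr19:34640770-34640828: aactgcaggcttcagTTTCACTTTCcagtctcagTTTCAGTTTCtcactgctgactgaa
Ifit3, chr19:34583358-34583431: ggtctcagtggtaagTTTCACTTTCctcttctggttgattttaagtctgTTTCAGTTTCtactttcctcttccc
Ifit3b, chr19:34607754-34607827: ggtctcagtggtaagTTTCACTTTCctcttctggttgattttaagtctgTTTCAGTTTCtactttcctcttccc
The same pair of cores, TTTCACTTTC and then TTTCAGTTTC, stood in all 3 genes. Relative to the RefSeq start site, they began at -104 and -85 in Ifit1, at -156 and -122 in Ifit3 and at -188 and -154 in Ifit3b. These distances depend on the start site used. The RefSeq start sites of Ifit3 (34583529) and Ifit3b (34607957) lie inside the gene spans listed above, and so do their printed stretches. The Ifit3 and Ifit3b stretches differed at 0 of 74 bases. The gamma-activated sequence TTCNNNGAA, which STAT dimers bind, was found once, in a window of Ifit2, and in 8.3% of all windows. A match in these letters is not a measured binding site, and a window without one says nothing of more distant sequence.

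The 4 libraries held between 16317239 and 18726963 counted reads. Lens genes took 2.02% of the counts of the NC library of pair A and at most 0.00678% in the other libraries. The antagomir library of pair B stood apart by the summed levels of 3 marker lists, those of microglia, of monocytes and neutrophils, and of gliosis. Only 3 of the 14 monocyte and neutrophil markers had enough counts to be tested. The values of these lists are given with the results they touch. Levels are therefore given as counts scaled to a library of equal size (CPM) after TMM normalization, which scales the libraries on the bulk of the genes. TPM is given where genes of different length are compared or added, and for the ranges of Crx and Ifnar1. Lens genes took 6.53% of the TPM of the NC library of pair A, which lowers the other TPM values there. Crx, a photoreceptor transcription factor and the most abundant of the 18 retina markers, had between 1618 and 1793 TPM in all libraries. With edgeR's quasi-likelihood test over 17766 genes, 0 genes (0%) had an adjusted p-value under 0.05, and the smallest was 0.487. Unadjusted, 3.91% of the genes had a p-value under 0.05, and DESeq2's Wald test called 34 genes. All 4 Ifit genes passed the filter on low counts, which asks for enough counts in the libraries of 1 group only. Ifit1, with 3 counts in each NC library, and Ifit3b, with 6 and 10, passed it through the antagomir libraries alone. Those with a log2 fold change of at least 2 were Ifit1, Ifit3 and Ifit3b, a size that 0.332% of all genes tested reached. The members were picked with these counts known, so nothing is read from this share.

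Ifit1 was almost silent in the NC group. It had 3 counts in each NC library, against 78 and 174 counts in the antagomir eyes of A and B. This corresponds to 0.186 and 0.166 CPM in the NC group and to 4.57 and 9.23 CPM in the antagomir eyes, and the groups did not overlap. Within pair A the ratio was 24.5, with an exact 95% interval from counting error of 8.09 to 121.5. Within pair B it was 55.6, with an interval of 18.7 to 272.0. The intervals are wide because of the 3 counts in the denominators. The fitted log2 fold change was 5.24 (standard error, SE, 0.54), the fourth largest among genes higher in the anti-miR-124 group. With a prior count of 2, which shrinks ratios of low counts, it was 4.60.

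**Figure D1:**
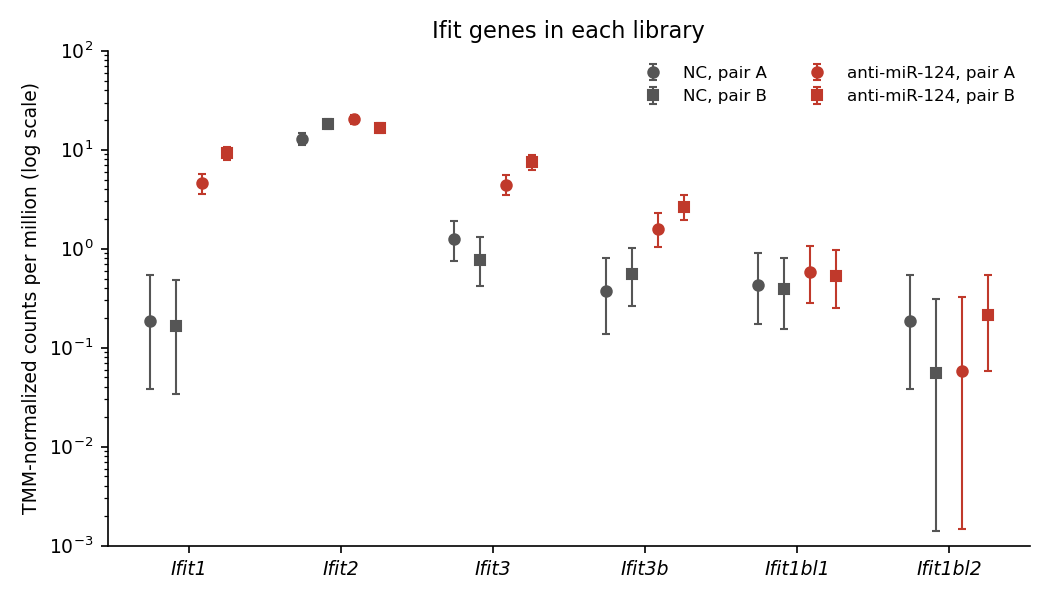
TMM-normalized counts (CPM, log axis) of the Ifit genes and of the 2 other Ifit loci in each library, with exact 95% Poisson intervals as bars. The anti-miR-124 points of Ifit1, Ifit3 and Ifit3b lie above both NC points, from 0.186 CPM at most to 4.57 CPM at least for Ifit1, while for Ifit2 the pair A point (20.4 CPM) lies above both NC points and the pair B point (16.7 CPM) between them.

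Ifit3 had 20 and 14 counts in the NC libraries of pair A and pair B and 76 and 141 counts in the antagomir libraries. Its level was 1.01 ± 0.33 CPM in the NC group and 5.97 ± 2.14 CPM in the anti-miR-124 group (mean ± SD, n = 2). The higher level of the antagomir eyes was seen in each pair, with a ratio of 3.58 (interval 2.17 to 6.20) in pair A and 9.65 (5.56 to 18.1) in pair B. The fitted log2 fold change was 2.57 (SE 0.39).

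Ifit3b had the fewest counts of the 4 genes in the anti-miR-124 group. They were 6 and 10 in the NC libraries of pair A and pair B and 27 and 50 in the antagomir libraries. Here too both antagomir libraries lay above both NC libraries. The ratio was 4.25 (1.72 to 12.6) in pair A and 4.79 (2.40 to 10.6) in pair B, and the fitted log2 fold change was 2.17 (SE 0.45). Ifit3 and Ifit3b cannot be read as independent measurements, because 51.2% of all 50-base words of the Ifit3 transcript also occur in that of Ifit3b, and 31.7% of all 100-base words. How reads that match both were assigned is not given in the sources used here. Ifit3b made up 26.2% of the counts of both genes in either antagomir library (exact 95% interval 18.0% to 35.8% in pair A and 20.1% to 33.0% in pair B). In the NC libraries it made up 23.1% (8.97% to 43.6%) and 41.7% (22.1% to 63.4%), so no difference in this share was detectable at this depth. Added together, which leaves the assignment between them aside, Ifit3 and Ifit3b had 26 and 24 counts in the NC eyes against 103 and 191 in the antagomir eyes. The ratio of this sum was 3.74 (2.41 to 5.99) in pair A and 7.62 (4.97 to 12.2) in pair B.

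Ifit2 did not follow the other members. It had 209 and 328 counts in the NC libraries of pair A and pair B and 348 and 314 in the antagomir libraries. In CPM these were 13.0 and 18.2 for the NC group and 20.4 and 16.7 for the anti-miR-124 group, so the groups overlapped. The ratio was 1.57 (1.32 to 1.87) in pair A and 0.917 (0.783 to 1.07) in pair B, in opposite directions. These directions depend on the matching by number. The antagomir library of pair A lay above both NC libraries, and that of pair B lay between them. The NC libraries themselves differed, with 1.40 times (1.17 to 1.67) as much Ifit2 in pair B as in pair A. The fitted log2 fold change was 0.25 (SE 0.19), and it was 0.03 without the NC library of pair A. The table gives counts per gene over a length of 4416 bases, so the start site or exon from which the Ifit2 reads came was not tested. RefSeq lists start sites of Ifit2 at 34550694 and 34551088.

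**Figure D2:**
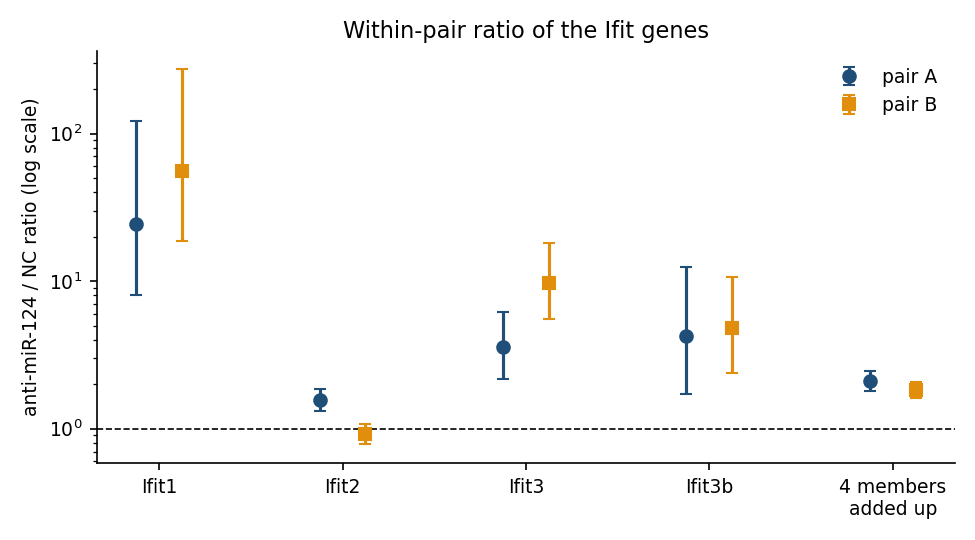
Ratio of the antagomir library to the NC library within pair A and pair B (log axis), from TMM-normalized counts, with exact 95% intervals for counting error only. Ifit1, Ifit3 and Ifit3b lie above 1 in both pairs, and Ifit2 lies at 1.57 in pair A and 0.917 in pair B.

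Of the 4 members, 3 had both antagomir libraries above both NC libraries, as did 16.5% of all genes tested. The same 3 were higher in both pairs, against 22.8% of all genes. Since these counts were known when the members were picked, nothing is read from these shares. The intervals of the Ifit2 ratio did not overlap those of the Ifit1 or Ifit3 ratios in either pair. In pair A the intervals of Ifit2 (1.32 to 1.87) and Ifit3b (1.72 to 12.6) did overlap.

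The amount of Ifit transcript per gene length differed between the groups in order as well as in size. In the NC group Ifit2 was the highest at 11.3 ± 3.36 TPM, followed by Ifit3 at 1.19 ± 0.32, Ifit3b at 0.662 ± 0.224 and Ifit1 at 0.212 ± 0.004 (mean ± SD, n = 2). Ifit3 and Ifit3b lay close in the NC library of pair B, at 0.967 and 0.820 TPM. In the anti-miR-124 group Ifit2 had 13.8 ± 1.83 TPM, Ifit1 8.63 ± 4.20, Ifit3 7.39 ± 2.72 and Ifit3b 3.11 ± 1.14. The levels of Ifit1 and Ifit3 in that group differed by less than their spread, with 5.66 and 5.46 TPM in pair A and 11.6 and 9.31 TPM in pair B. In pair B, Ifit1 also came close to Ifit2 at 12.5 TPM. Ifit2 thus made up 80.7% and 87.3% of the summed TPM of the 4 genes in the NC eyes, but 52.9% and 33.5% in the antagomir eyes of A and B. The share of Ifit1 was 1.94% and 1.34% in the NC eyes against 19.9% and 31.1% in the antagomir eyes. Relative to Ifit3, Ifit1 took 50.6% (42.5% to 58.8%) and 55.2% (49.6% to 60.8%) of their common counts in the antagomir eyes of pair A and pair B. It took 13.0% (2.78% to 33.6%) and 17.6% (3.80% to 43.4%) of them in the NC eyes.

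**Figure D3:**
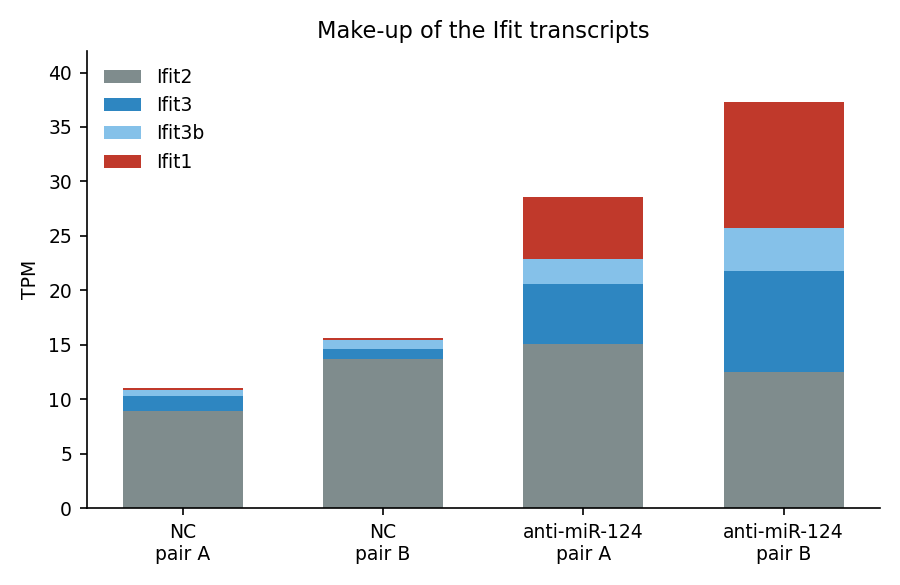
TPM of the 4 Ifit genes in each library, stacked. The summed level is 11.1 and 15.7 TPM in the NC eyes against 28.5 and 37.3 TPM in the antagomir eyes, and the Ifit2 part stays between 8.92 and 15.1 TPM in all 4.

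The 2 antagomir libraries differed from each other in the same direction for the 3 genes. The library of pair B had 2.02 times (interval 1.54 to 2.67) as much Ifit1 as that of pair A, 1.68 times (1.26 to 2.25) as much Ifit3 and 1.68 times (1.03 to 2.79) as much Ifit3b. Ifit2 was lower there, at 0.817 times (0.699 to 0.955). With Ifit2 included, the 4 genes added together hid this pattern, with a sum of 238 and 355 counts in the NC eyes against 529 and 679 in the antagomir eyes. The log2 ratio of the sum was 1.07 in pair A and 0.87 in pair B. Without Ifit2, an alternative added after the values were seen, it was 2.56 and 3.69.

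The cluster also holds Ifit1bl1 and Ifit1bl2, which encode proteins related to Ifit1 and lie on the minus strand. Ifit1bl1 had 7 counts in each NC library and 10 in each antagomir library. Both of its promoter windows held 1 match to the ISRE core, with the letters TTTCATTTTC. Ifit1bl2 had 3 and 1 counts in the NC libraries of pair A and pair B and 1 and 4 in the antagomir libraries. Both were too low to pass the filter and were not tested. Ifit1bl2 begins 146 bases from Ifit1 and is read in the opposite direction, so that 1 of its start sites in RefSeq shares the upstream stretch of Ifit1. Read on its own strand, this is the same piece of DNA, with the ISRE cores in capitals.
Ifit1bl2, chr19:34640770-34640828: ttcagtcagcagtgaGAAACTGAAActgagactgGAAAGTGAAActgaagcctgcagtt
In the antagomir libraries, Ifit1 had 78 and 174 counts and Ifit1bl2 had 1 and 4. These are counts per gene, and RefSeq lists another start site of Ifit1bl2 at 34629811. How many reads began at this stretch on either strand was therefore not tested. Of the 50-base words of the Ifit1 transcript, 7.06% also occur in that of Ifit1bl2. The table lists Ifit1bl1 from 34592888 to 34662997, a span that covers Ifit3b and Ifit1 on the other strand. The library kit keeps the strand, but whether the counting used it is not given in the sources used here.

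Within 300 kb to either side of the cluster, the table lists 15 genes other than the members, 9 of them protein-coding and 5 of them tested. The genes flanking the cluster did not share the pattern of Ifit1, Ifit3 and Ifit3b. Lipa, a lysosomal lipase gene on the side of Ifit2, had 309 and 256 counts (NC, then antagomir) in pair A and 263 and 589 in pair B, so it was higher only in the antagomir library of pair B. Slc16a12, a transporter gene next to Ifit1, had 67 and 5 counts in pair A and 5 and 36 in pair B, with the groups overlapping. Pank1, which encodes a kinase of coenzyme A synthesis, had a log2 difference of -0.17 (SE 0.13), and Kif20b, a mitotic kinesin gene, of -0.15 (SE 0.24). Acta2, smooth muscle actin, had -0.41 (SE 0.53). Each of these 5 had an adjusted p-value of 0.989 in edgeR's quasi-likelihood test. That test called 0 of 17766 genes, so its result cannot set these 5 apart from the members. Fas and Ch25h had at most 9 counts in any library.

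**Figure D4:**
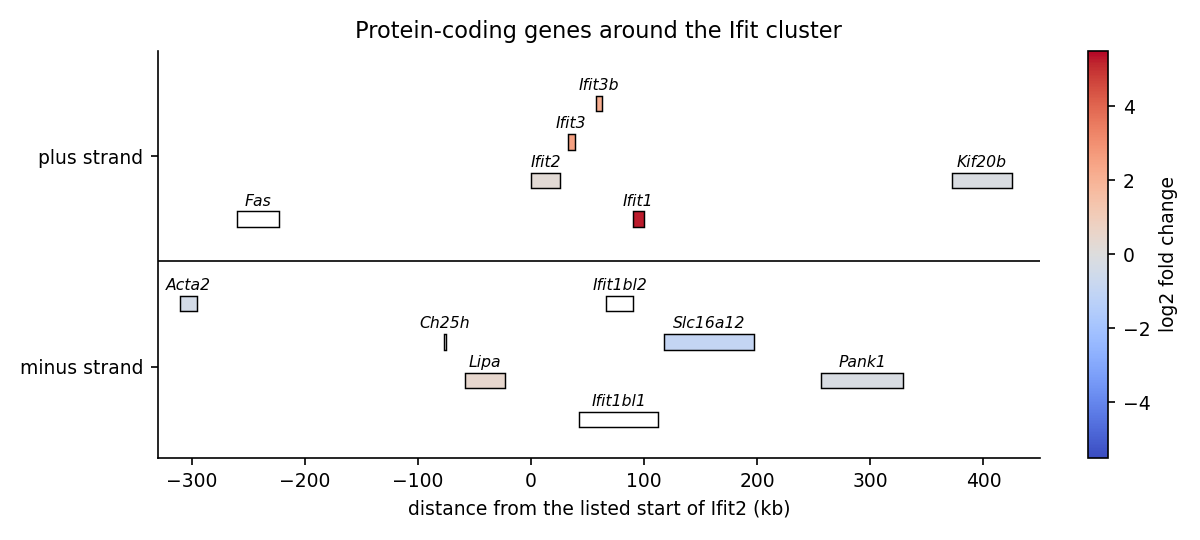
Protein-coding genes around the Ifit cluster by distance from the listed start of Ifit2 in kb, with plus-strand genes above and minus-strand genes below the line, offset vertically only to keep names apart. Colour gives the log2 fold change (5.24 for Ifit1, -0.96 for Slc16a12), and white boxes are genes that did not pass the filter on low counts.

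The genes most like the 4 members added together were sought among all genes tested, by the root mean square difference of log2 CPM centred over the 4 libraries. The nearest were the non-coding genes ENSMUSG00000097723.1 (0.063) and Gm38804 (0.070), Slc22a12 (0.074), the antisense gene ENSMUSG00000086998.1 (0.084) and Ube2l6 (0.090). Only Ube2l6 among them had more than 30 counts in a library, with 35 and 48 in the NC and 84 and 93 in the antagomir libraries. The members did not resemble each other equally. Ifit3 and Ifit3b differed by 0.45 on this log2 scale, Ifit1 and Ifit3 by 1.06, and Ifit1 and Ifit2 by 2.18, the largest difference of the 6 pairs of members. Taken one by one, which was decided after the values were seen, the nearest gene was Sp100 for Ifit1 (0.45), Lgals3bp for Ifit3 (0.10), Xaf1 for Ifit3b (0.064) and the non-coding gene Gm34353 for Ifit2 (0.010). Lgals3bp had 59 and 211 counts (NC, then antagomir) in pair A and 49 and 451 in pair B. With 4 libraries many genes can share a pattern.

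The interferon pathway around the Ifit genes was described with lists, written with earlier results of these libraries known. No set test was run for them. Of 21 interferon genes, 17 had no count in any library, Ifnb1 and the listed Ifna genes among them. The other 4 were Ifnk with 3 counts, Ifnab and Ifng with 1 count each, all in the NC library of pair A, and Ifnz with 1 count in the NC library of pair B. In both antagomir libraries all 21 had 0 counts, which allows up to 3 counts per gene and library. The receptors and kinases that carry the signal were expressed and differed little. Ifnar1, a chain of the type I interferon receptor, had between 45.7 and 52.5 TPM in all libraries and a log2 change of 0.01 (SE 0.07), and Ifnar2, the other chain, of -0.11 (SE 0.18). The kinases Jak1 (0.06), Jak2 (0.001) and Tyk2 (0.16) and the interferon gamma receptor chains Ifngr1 (0.10) and Ifngr2 (0.13) lay in the same range. Il10rb, a receptor chain shared with other cytokines, had 1.06 (SE 0.44), with 32 and 36 counts in the NC and 42 and 110 in the antagomir libraries. Ifnlr1 had at most 7 counts and was not tested. Of the 8 tested genes of this list, 5 were higher in both pairs and 0 were lower, against 22.8% and 24% of all genes tested. Their median log2 change was 0.08, against 0.0007 over all genes.

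Irf9, the DNA-binding subunit of ISGF3, had 137 and 287 counts in pair A and 131 and 501 in pair B, a log2 change of 1.46 (SE 0.23). Stat2, which also belongs to ISGF3, had 0.33 (SE 0.12), and both genes were higher in both pairs. Irf7, which amplifies interferon induction, had 15 and 11 counts in the NC and 72 and 213 in the antagomir libraries (log2 fold change 3.34, SE 0.56). Irf1 had 0.55 (SE 0.31) and was higher in both pairs. Irf3, which acts before any interferon is made, had 0.003 (SE 0.17), and Irf5 0.30 (SE 0.28), with opposite directions in the pairs. In a list of 7 such factors, 5 were higher in both pairs and 0 were lower, against 22.8% and 24% of all genes tested. The median of the list was 0.55. None of these factors passed the test, and neither did any other gene.

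Of 47 listed interferon-stimulated genes other than the Ifit genes, 38 were tested. Of these, 35 were higher in both pairs and 0 were lower, against 22.8% and 24% of all genes tested. The 38 genes had a median log2 change of 2.10 (1.53 in pair A and 2.52 in pair B). None of them passed the test over all genes, and neither did any other gene. The list was written with earlier results of these libraries known, so it is not independent of them. Genes silent in the NC group could also pass the filter on low counts through the antagomir libraries alone, and then only count as higher. Oas1a, with 0 counts in each NC library and 12 and 41 in the antagomir libraries, was such a gene. By log2 change, Ifit1 lay well above the median of the list, Ifit3 and Ifit3b near it, and Ifit2 close to the lowest value of the list, which was 0.12. Within pair A alone 36 of the 38 were higher, and within pair B alone 37. The most abundant gene of the list was Trim25, a ubiquitin ligase of RNA sensing, with 0.70 (SE 0.20). Of 8 sensors of foreign nucleic acid and their kinases, 4 were higher in each pair and 1 was lower, and their median was 0.62. Their median log2 ratio was 0.06 in pair A, where 4 of 8 were higher, but 1.05 in pair B, where 7 of 8 were higher and where the microglia and gliosis lists had medians of 1.38 and 2.11. The part of those cells in this difference was not tested. The one that was lower was Tbk1 (-0.22, SE 0.08), the kinase that activates Irf3.

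Genes of mRNA cap methylation and of the translation factor eIF3 had medians near 0. Of all genes tested, 22.8% were higher in both pairs and 24% lower. The 5 genes of mRNA cap methylation had a median of -0.03, with 2 higher in both pairs and 3 lower, and lay between -0.11 and 0.18. Fam103a1, the most abundant of them and a cofactor of the cap methyltransferase, had -0.09 (SE 0.10). The 14 subunits of the translation factor eIF3, which IFIT proteins can bind, had a median of 0.003, with 5 higher in both pairs and 2 lower, and lay between -0.13 and 0.13. Eif3c, the most abundant of them, had 0.08 (SE 0.07).

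**Figure D5:**
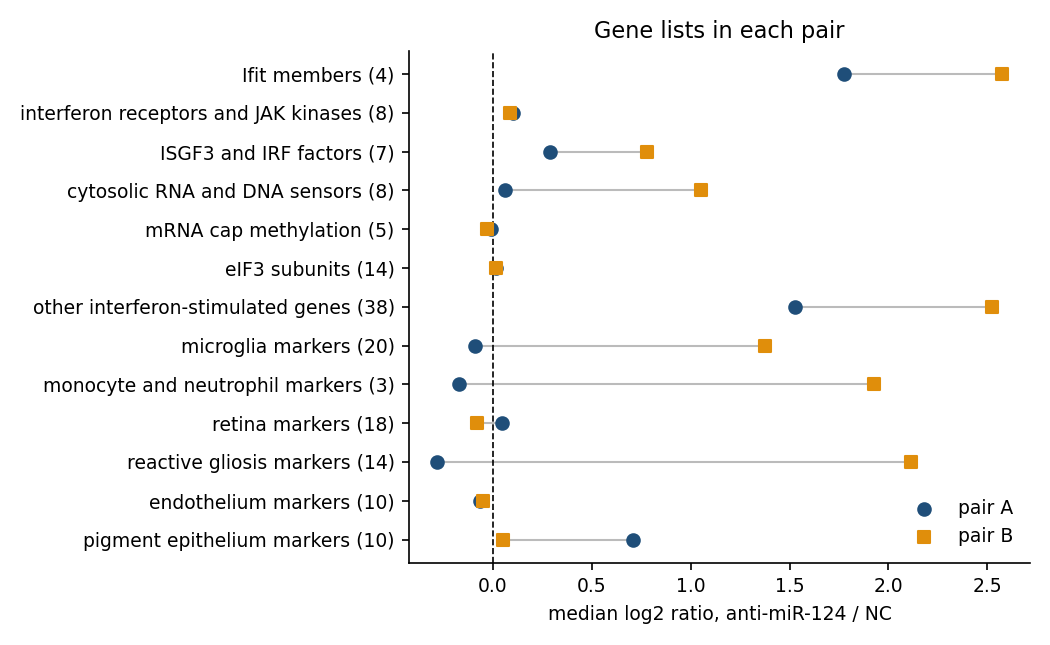
Median log2 ratio of each gene list within pair A and pair B, from log2 CPM with a prior count of 2, with the number of tested genes in brackets. The interferon-stimulated list lies at 1.53 and 2.52 and the microglia list at -0.09 and 1.38 in the same order. Lens markers are left out of the plot.

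In whole-retina RNA, more cells of a type and more RNA per cell cannot be told apart, so markers of other cells were measured beside the Ifit genes. The 20 microglia markers summed to 201.2 and 183.8 CPM in the NC and antagomir libraries of pair A and to 149.9 and 406.5 CPM in those of pair B. In this sum the antagomir library of pair A lay between the NC libraries. In pair A 8 of the 20 markers were higher, and the median log2 ratio was -0.09. Ifit1, Ifit3 and Ifit3b had 24.5, 3.58 and 4.25 times their NC level in that pair. In pair B all 20 markers were higher, with a median of 1.38. The part of the microglia in the Ifit values was not tested in either pair. The 14 markers of monocytes and neutrophils summed to between 153.9 and 160.8 CPM in 3 libraries and to 444.5 CPM in the antagomir library of pair B. Of these markers, Ly6c2, Mpo, Elane and Chil3 had no count in any library and 3 were tested. Lyz2, the most abundant, had 226 and 136 counts in pair A and 140 and 2646 in pair B. The 15 markers of reactive gliosis summed to 716.8 and 518.9 CPM in pair A and to 506.7 and 1011 CPM in pair B. Vim, the most abundant gliosis marker, had 0.19 (SE 0.28). Without the antagomir library of pair B, which stood apart in all 3 lists, the log2 fold changes were 4.65 for Ifit1, 2.15 for Ifit3, 1.75 for Ifit3b and 0.39 for Ifit2. Without the NC library of pair A, which carried the lens transcripts (94776 counts of the crystallin gene Cryaa, against at most 357 elsewhere), they were 5.32, 2.94, 1.93 and 0.03. The retina markers had a median log2 change of -0.01 over 18 genes, and the endothelium markers of -0.06 over 10 genes, with 0.07 (SE 0.08) for Kdr, the most abundant of the latter. The pigment epithelium markers had 0.40 over 10 genes, 0.71 within pair A and 0.05 within pair B. Their most abundant gene, Rlbp1, had -0.12 (SE 0.07), but it is also one of the 18 retina markers and so not particular to this list.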

How the data were processed

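Retinal RNA was sequenced in 2 libraries per group, made with a strand-keeping kit. The authors deposited raw read counts per gene, gene lengths and positions and 4 further columns of per-sample values, named RPKM, that were not used here. The submitters' processing notes name HISAT2 and the build mm9. Of 36837 gene symbols matched to RefSeq, however, 99.8% overlapped the GRCm38 position, which was therefore used. The counting tool, its strand setting and its handling of reads with several matches are not given in the sources used here. The methods speak of mixed retinas and of biological replicates, but do not say whether the libraries of a group came from separate mice, so the spread between them may be partly technical.

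Columns were assigned to groups by the eye they name. TPM was computed from counts and lengths. All 17766 genes that passed edgeR's filter were fitted with the quasi-likelihood test (R 4.3.3 with edgeR 4.0.16, two-sided, TMM, no covariate, Benjamini-Hochberg adjustment, threshold 0.05), after a test on simulated data. DESeq2 1.42.0 was an alternative. Standard errors of log2 fold changes were the fold change divided by the square root of its F value. Ratios within a pair have exact conditional binomial intervals and counts have exact Poisson intervals, all at 95% and for counting error only. The other steps ran in Python 3.11.15 with scipy 1.17.1. Coding sequences came from GENCODE M21 and promoters from RefSeq (GRCm38.p6). The mature miR-124-3p sequence was not used here.

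The members and lists were chosen with earlier results of these data known. Named genes were the members, the other Ifit loci, the interferon genes with counts, receptors and factors, the most abundant gene of each other list, the coding neighbours and the 5 nearest genes by pattern. Any further gene was named after its values were seen. Some items that this rule names are not reported here.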

Additional observations from a re-analysis of the deposited data

How the results depend on the processing

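The log2 fold changes of Ifit1, Ifit2, Ifit3 and Ifit3b kept their direction under all 15 alternatives each, which were other normalizations, filters, prior counts, DESeq2's Wald test, TPM, the replicate block and leaving out each library. Those of Ifit1, Ifit2 and Ifit3 moved by less than the SD between the pairs, which itself depends on the matching by number. For Ifit2 this SD (0.55) was larger than the fold change (0.25), so the comparison cannot show that its value is stable. For Ifit3b the SD was 0.12, and 5 of the 15 alternatives moved its value by more. Leaving out 1 library at a time gave 4.65 to 5.66 for Ifit1, 0.03 to 0.51 for Ifit2, 2.15 to 2.94 for Ifit3, 1.75 to 2.49 for Ifit3b and 0.765 to 1.18 for the log2 ratio of the summed count, which was 0.97 with all libraries. A prior count of 2 gave 1.95 for Ifit3b and 4.60 for Ifit1, its lowest value over all 15 alternatives. The summed log2 ratio was 3.13 without Ifit2, an alternative chosen after seeing the data.

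At an adjusted p-value of 0.05, edgeR called 0 genes under the other normalizations and with genes of a mean count of 10 or more. It was 379 with no filter on low counts and 34 with DESeq2's Wald test, for which the cause was not tested. With 1 library left out it lay between 0 and 256. It was 0 without the NC library of pair A, 256 without the antagomir library of pair A, 57 without the NC library of pair B and 12 without the antagomir library of pair B. The lone library of a group was then assumed to vary like the other group.

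The labels give both groups the same replicate numbers, but how these match the numbers in the table, which define pair A and pair B, is not known. The pairing was checked on the numbers in the table only. Libraries that share one had deviations correlated at -0.16 over genes. With 2 libraries per group, crossed numbers give the same value with the opposite sign by construction. The value therefore cannot show whether the numbers pair the libraries, and the main fit did not take them to do so. With the replicate block 0 genes were called, and 376 had an unadjusted p-value under 0.05 against 694 without it. The block gave log2 fold changes of 5.22 for Ifit1, 0.26 for Ifit2, 2.54 for Ifit3 and 2.17 for Ifit3b. With the numbers crossed, a pairing also chosen after seeing the data, 160 genes were called. Depth limits Ifit1, with 3 counts in each NC library, most of all.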
